A study of Mus musculus with 12 samples.

Results

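The polyamines putrescine, spermidine and spermine are small cations that bind RNA and are needed for growth and for protein synthesis. Ornithine decarboxylase (Odc1) makes putrescine, S-adenosylmethionine decarboxylase (Amd1) supplies the aminopropyl donor, spermidine synthase (Srm) and spermine synthase (Sms) use that donor, and spermidine/spermine acetyltransferase (Sat1) and spermine oxidase (Smox) start the way back. Antizymes (Oaz1 and Oaz2) bind ornithine decarboxylase and send it to the proteasome, the antizyme inhibitor (Azin1) takes antizyme away from it, and deoxyhypusine synthase (Dhps) uses spermidine to modify the translation factor eIF5A. Several of these mRNAs are textbook cases of control by polyamines at the ribosome: antizyme synthesis needs a programmed frameshift that polyamines favour, and upstream reading frames of Amd1 and Azin1 respond to polyamines.

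The 10 genes were chosen by name, and all probes whose transcript accession belongs to 1 of them were taken, which gave 18 of the 41174 probes of the array. Odc1, Sms and Sat1 had 2 probes each, Azin1 had 3, Oaz2 had 4 and the other genes had 1. Of the 18 probes, 16 were well above background on all 12 arrays. The exceptions were Azin1 A_52_P117313, which passed on 7 arrays, and Sms A_51_P457259, whose spots of replicate 3 in both groups at 0 h were outliers and were left out.

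The cells were 3T3-L1, a single line of mouse embryonic fibroblasts that can be induced to become adipocytes. Cells of the 0 h groups were harvested without hormones from Dulbecco's modified Eagle's medium with 10% newborn bovine serum. Cells of the 6 h groups had spent 6 h in the same medium with 10% fetal bovine serum, 0.5 mM isobutylmethylxanthine (IBMX), 1 µM dexamethasone and 5 µg/ml insulin, so the hormones, the change of serum and the time cannot be told apart. Lysates were run on sucrose gradients, and the non-polysomal RNA (np) was a pool of fractions 5 to 7, the polysomal RNA (p) one of fractions 9 to 11. This gave 4 groups (np0, p0, np6 and p6) of 3 replicates, 12 arrays of 1 color in all, and the other fractions were not on the arrays. The study calls the replicates biological, while the sample descriptions do not say that they were separate cultures, so the p-values measure the spread between these samples.

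The labelled cell type was checked against markers. All 10 fibroblast genes examined, among them Col1a1, Vim and Pdgfra, were well above background on every array, and of 7 genes of mature fat cells Lep and Slc2a4 were so on none, while Adipoq, Cidec, Fabp4 and Plin1 were so on all. Cdh1 and Epcam (epithelium) and Kdr and Pecam1 (endothelium) were well above background on no array, and Krt5, Krt14 and Cd3e on all. Intensities had a 75th percentile of 241 to 281 on the np arrays and 425.5 to 566.6 on the p arrays, and 55.6% to 60.7% of the probes of an array were well above background. Replicates of a group correlated at Pearson's r of 0.985 to 0.992 across probes, which are not independent, and arrays of different groups at no more than 0.971.

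Values are log2 signals, background-subtracted and scaled by 10 control transcripts (spike-ins) that were added per amount of RNA, so a level is relative to the RNA of a pool and not to a cell. In such bulk samples fewer cells of a type and less RNA per cell cannot be told apart. Signals of different probes are not compared with each other, since probes differ in how well they bind. A difference was called changed where the Benjamini-Hochberg adjusted p of limma over all probes was below 0.05. The scaling mattered for every polysomal value at 6 h. The spike-ins were dimmer on the p6 arrays than on the others (offsets of -0.48 to -0.21 against 0.05 to 0.18), with a mean log2 difference of -0.83 for the 5 dimmer transcripts and -0.091 for the 5 brighter ones. With this scaling the median of all probes between 0 h and 6 h was 0.54 in the polysomal and 0.039 in the non-polysomal pool, and under scaling to the 75th percentile the first of these medians fell by 0.49 and the second decreased by 0.063. Values are therefore also set against the median of all probes, which takes out a shift common to all probes but not one that depends on their brightness.

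Most of the polyamine transcripts rose during the 6 h. In the polysomal pool 16 of 18 probes rose, 13 of them more than 2-fold, and 1 fell, against 50.7% of all probes that rose, 19.2% that rose more than 2-fold and 11.7% that fell. In the non-polysomal pool 12 of 18 rose, 8 of them more than 2-fold, and 1 fell, by less than 2-fold, against 20.6%, 8.12% and 19.6% of all probes and 8.11% that fell more than 2-fold. The median change of the 18 probes was 1.57 (log2) in the polysomal and 0.86 in the non-polysomal pool. Srm, Amd1, Sat1, Azin1 and Oaz1 rose more than 2-fold in both pools, Odc1 and Smox did so in the polysomal pool and by less in the other, Dhps and Oaz2 rose in the polysomal pool with no change called by all their probes in the other, and Sms rose on neither of its probes with the spike-in offset. Set against the median of all probes, the polysomal change was 2.43 for Srm, 2.04 for Amd1, 1.80 and 1.44 for Sat1, 1.605 for Smox, 1.13 and 1.12 for Odc1, 0.94 for Oaz1 and 0.47 for Dhps. For Azin1 it was 0.755, 1.783 and 1.211, for Oaz2 it was -0.061 to 0.498, and for Sms -0.398 and -1.068. Quantile normalization lowered the probes that rose more than 2-fold in the polysomal pool from 13 to 8, and the share of all probes that did so from 19.2% to 7.78%. Under the straight line through the spike-ins 63.5% of all probes rose more than 2-fold there, 11 of the 18 in place of 15 lay above the median of all probes, and the median of the 18 exceeded it by 0.32 in place of 1.03.

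**Figure D1:**
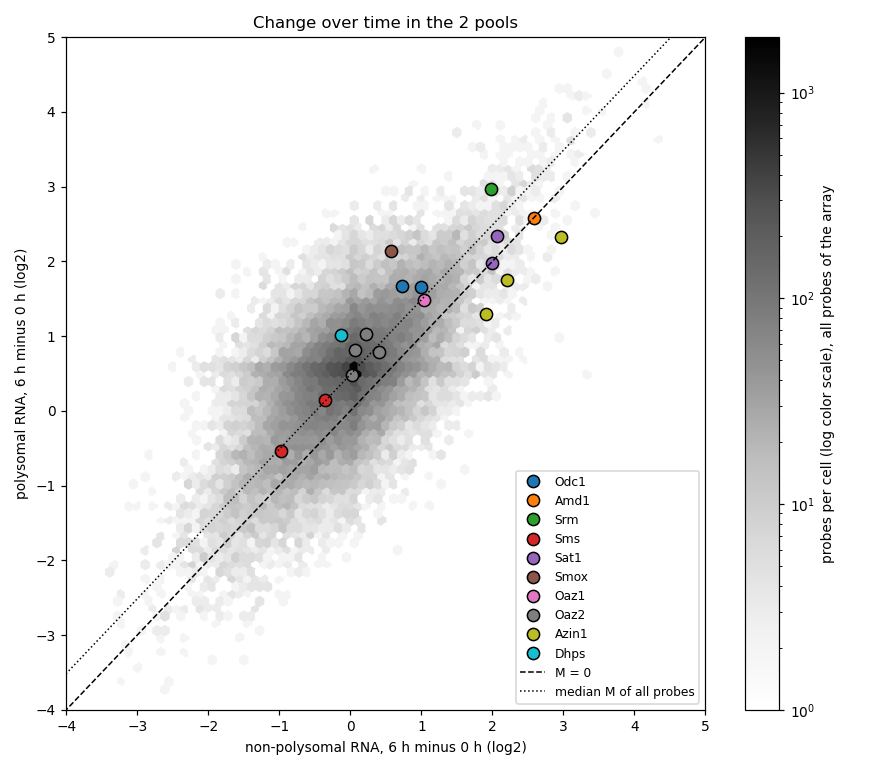
Change from 0 h to 6 h (log2) in the non-polysomal pool (x axis) and the polysomal pool (y axis) for the 18 probes of the polyamine genes (colored circles) over the density of all probes of the array (gray, log color scale). Points on the dashed line changed equally in both pools, and the dotted line marks the median of all probes. With spike-in scaling Smox, Srm, Odc1, Dhps and the Oaz2 probes A_51_P311945 and A_52_P654130 lie above the dotted line. Amd1 lies on the dashed line and the Azin1 probes lie below it. A straight line through the spike-ins moves Amd1 and 2 Azin1 probes above the dashed line.

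Odc1, the first and most tightly regulated enzyme of the pathway, rose in both pools and more in the polysomal one. On A_51_P291347 the 3 arrays read 14.47, 14.48 and 14.39 in np0, 14.57, 14.75 and 14.65 in p0, 15.27, 15.10 and 15.16 in np6, and 16.34, 16.28 and 16.36 in p6. Every 6 h array was thus above every 0 h array, and at 6 h the pools did not overlap. The polysomal level rose by 1.67 ± 0.075 (limma SE, n = 3 arrays in each group), or 3.18-fold, and the non-polysomal level by 0.73 ± 0.075, or 1.66-fold. The probe A_52_P436238 gave 1.66 ± 0.070 and 0.99 ± 0.070. All 4 adjusted p were at most 2.1e-05 (limma).

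Amd1, which makes the aminopropyl donor of both synthases, rose in both pools. With the spike-in offset the amounts were equal within the limma error, which does not cover the choice of scaling. Set against the median of all probes, the rise was 2.04 in the polysomal and 2.55 in the non-polysomal pool. Its arrays read 6.43, 6.48 and 6.52 in np0, 6.31, 6.56 and 6.52 in p0, 9.03, 9.10 and 9.07 in np6, and 9.00, 8.98 and 9.15 in p6. The pools overlapped at both times and the times did not. The rise was 2.58 ± 0.083 or 5.98-fold in the polysomal pool (limma adjusted p = 5.7e-09) and 2.59 ± 0.083 or 6.01-fold in the non-polysomal pool (limma adjusted p = 1.3e-08), above 98.3% and 99.1% of all probes. Amd2, a near-identical copy of Amd1 with a probe of its own, rose by 1.15 and 1.61, and cross-hybridisation between the copies was not tested.

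Srm, which makes spermidine from putrescine, had the largest rise in the polysomal pool among the 10 genes. Its arrays read 11.04, 11.15 and 11.04 in np0, 12.58, 12.71 and 12.62 in p0, 12.98, 13.09 and 13.09 in np6, and 15.56, 15.61 and 15.65 in p6. All 4 groups were separate. The rise was 2.97 ± 0.070 or 7.82-fold in the polysomal pool and 1.98 ± 0.070 or 3.94-fold in the other, with limma adjusted p of 1.1e-09 and 2.1e-08.

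Sms, which makes spermine from spermidine, did not rise with the rest of the synthetic enzymes. On A_51_P457259, with 2 arrays left in each 0 h group, the change was 0.14 ± 0.131 (95% interval -0.17 to 0.44) in the polysomal and -0.35 ± 0.131 (-0.66 to -0.048) in the non-polysomal pool, neither past the adjusted threshold. The non-polysomal fall passed in 10 of 25 alternatives, 2 of which left out an array (p0 replicate 1 or 2, limma adjusted p = 0.023 and 0.025). The polysomal change passed in 3 and in both directions, at -0.36 with the 75th percentile, -0.70 with quantile normalization and 0.38 when the spike-ins were fitted by a straight line (limma adjusted p = 0.019, 0.00033 and 0.017). The dim probe A_52_P573377 read 4.89, 5.61 and 4.78 in np0 and 4.21, 3.88 and 4.24 in np6, and fell there by 0.98 on the log2 scale (SE 0.203, limma adjusted p = 0.0028). In the polysomal pool the same probe fell by 0.53 on the log2 scale (limma adjusted p = 0.044), a call that was lost without p0 replicate 2 or 3, without np6 replicate 1 or 3, or without any of the p6 arrays (limma adjusted p of 0.054 to 0.12). It was also lost without all arrays of replicate 1 or 3 (limma adjusted p = 0.15 and 0.12).

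**Figure D2:**
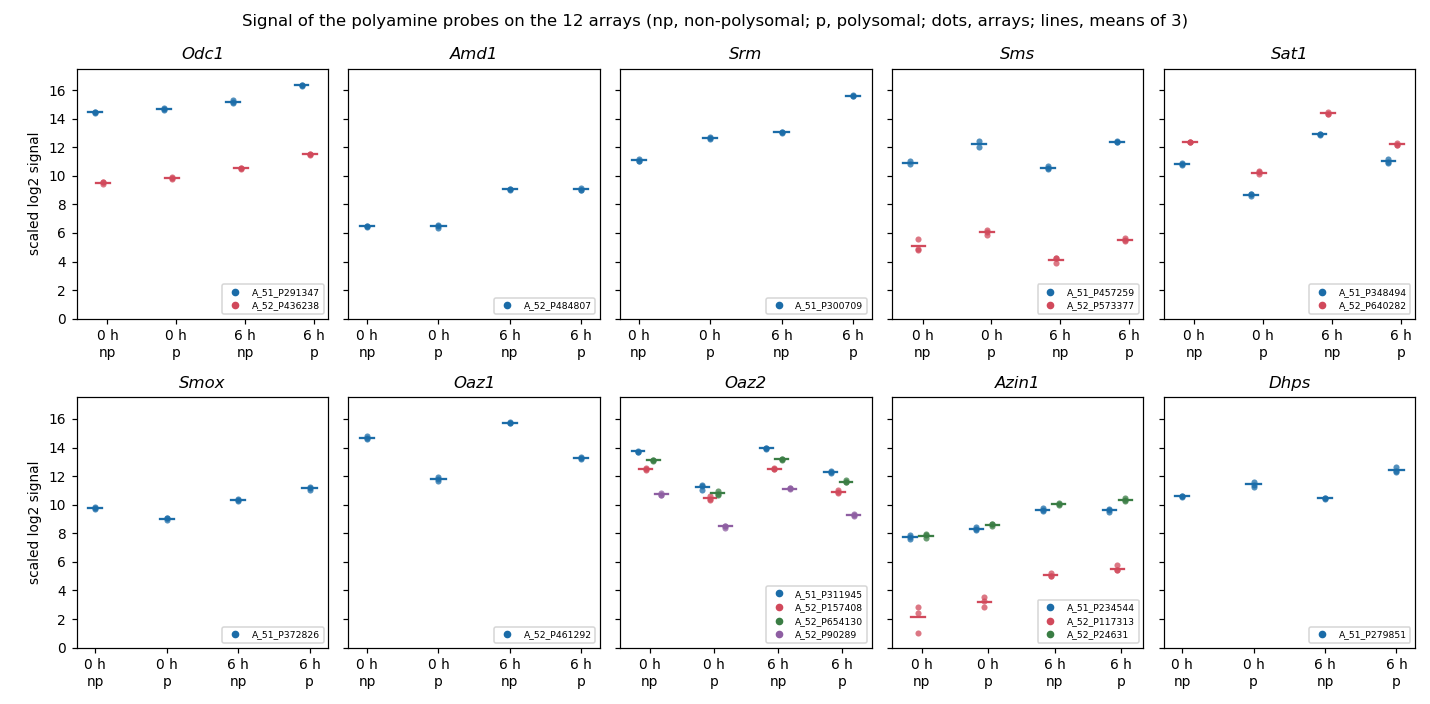
Scaled log2 signal (y axis) of each probe on each of the 12 arrays, by group (x axis; np, non-polysomal, p, polysomal), with a panel for each gene, dots for arrays, lines for means and colors for probes. With the spike-in offset Amd1 moves from 6.31 to 6.56 at 0 h up to 8.98 to 9.15 at 6 h over both pools. For Oaz1, Oaz2 and Sat1 every polysomal array lies below every non-polysomal array of the same time and probe.

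The 2 catabolic enzymes rose as well. Sat1, whose protein is induced by polyamines and tags them for export or oxidation, read 12.37, 12.40 and 12.34 in np0 and 14.48, 14.31 and 14.31 in np6 on A_52_P640282, and 10.10, 10.27 and 10.32 in p0 and 12.16, 12.17 and 12.30 in p6. Its rise was 1.98 ± 0.084 in the polysomal and 1.99 ± 0.084 in the non-polysomal pool on this probe, and 2.34 ± 0.085 and 2.07 ± 0.085 on A_51_P348494, which is 3.94- to 5.06-fold.

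Smox, which turns spermine back into spermidine, read 9.69, 9.83 and 9.75 in np0, 8.93, 9.04 and 9.08 in p0, 10.41, 10.28 and 10.30 in np6, and 11.19, 11.05 and 11.24 in p6. It lay lower in the polysomal than in the non-polysomal arrays at 0 h and higher at 6 h, without overlap at either time. The rise was 2.14 ± 0.079 or 4.41-fold in the polysomal pool and 0.57 ± 0.079 or 1.49-fold in the non-polysomal pool (limma adjusted p = 1.2e-08 and 0.00018).

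The regulators of ornithine decarboxylase differed among themselves. Oaz1 read 14.58, 14.79 and 14.69 in np0, 11.78, 11.92 and 11.68 in p0, 15.71, 15.68 and 15.76 in np6, and 13.21, 13.26 and 13.34 in p6. It rose by 1.48 ± 0.085 (2.79-fold) in the polysomal and 1.03 ± 0.085 (2.05-fold) in the non-polysomal pool (limma adjusted p = 2.1e-07 and 4.3e-06). The 4 Oaz2 probes rose by 0.48 to 1.03 in the polysomal pool, all past the threshold, while in the non-polysomal pool A_52_P90289 rose by 0.40 (limma adjusted p = 0.0011) and the other 3 changed by 0.026 to 0.22 and did not pass. Under scaling to the 75th percentile the polysomal change of the weakest Oaz2 probe, A_52_P157408, was -0.009. Without p0 replicate 1 the non-polysomal change of A_51_P311945 passed (0.22, limma adjusted p = 0.019).

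Azin1, the antizyme inhibitor, rose in both pools on each of its 3 probes. On A_51_P234544 the arrays read 7.62, 7.87 and 7.74 in np0, 8.21, 8.41 and 8.32 in p0, 9.75, 9.62 and 9.58 in np6, and 9.51, 9.62 and 9.70 in p6. The 6 h arrays were above the 0 h arrays throughout, and the pools, separate at 0 h, overlapped at 6 h. The non-polysomal rise was 1.91 ± 0.094 on this probe and 2.20 ± 0.104 on A_52_P24631, and the polysomal rise 1.29 ± 0.094 and 1.75 ± 0.104 (limma adjusted p of 1.1e-06 and smaller). The dim probe A_52_P117313 was not well above background on any np0 array, where its mean was 2.12 against a detection bound of 2.93, and reached 5.08 in np6, at least 4.42-fold above that bound. In the polysomal pool it went from 3.21, with 1 of 3 arrays well above background, to 5.53.

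Dhps, the first enzyme of hypusine formation, read 10.59, 10.56 and 10.58 in np0 and 10.45, 10.41 and 10.46 in np6, and 11.26, 11.61 and 11.37 in p0 and 12.36, 12.27 and 12.66 in p6. It rose by 1.01 ± 0.114 or 2.01-fold in the polysomal pool (limma adjusted p = 3.1e-05), while the non-polysomal change was -0.14 ± 0.114 (95% interval -0.39 to 0.12, limma adjusted p = 0.43). The np6 arrays all lay below the np0 arrays, and the p6 arrays all above the p0 arrays.

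IBMX blocks the breakdown of cyclic AMP, and the letters TGACG are the core of the element through which cyclic AMP-responsive factors bind DNA, so the promoters of the genes were searched for them on both strands. In the RefSeq set of promoters (assembly GRCm38.p6, 250 bases before to 50 after each gene start) 8 of the 10 genes had an entry, Srm and Azin1 being the exceptions, and 3 of the 8 held the motif, against 20.8% of all 32851 promoters. These 3 genes rose in both pools, and so did Sat1 and Smox, whose promoters did not hold it. Dhps and Oaz2, also without it, rose in the polysomal pool with no change called by all their probes in the other. Sms, without it too, rose in neither pool with the spike-in offset. A role of the motif was not tested. The sites are shown as 30 bases read along the gene, with the motif, or CGTCA where it lies on the opposite strand, in capitals. The Odc1 site begins 79 bases before the start (chr12:17544782-17544811, plus strand), the Amd1 site 60 (chr10:40302231-40302260, minus strand) and the Oaz1 site nearest its start 13 (chr10:80826626-80826655, plus strand). Oaz1 has a second site 221 bases before its start. No longer palindromic form was looked at here, and a match of letters is a description and not a site of binding.
Odc1: gccccgccccacTGACGcgcccggcccgcg
Amd1: gcggggcgatggCGTCActtcctggcctgt
Oaz1: gggggcgtggcctgccgTGACGacgcatat

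The genes also differed in how their RNA was divided between the pools, with the antizymes and Sat1 low and the synthases high in the polysomal pool. At 0 h 9 of 18 probes were higher in the polysomal pool, 3 of them more than 2-fold, and 8 were lower, 7 of them more than 2-fold. One of the 3 was the dim Azin1 probe, which against its detection bound in np0 was only at least 1.22-fold higher. Of all probes 37% were higher, 27.3% more than 2-fold, and 15% lower, 9.83% more than 2-fold. At 6 h 8 probes were higher, 5 more than 2-fold, and 7 lower, all more than 2-fold, against 59.9%, 37.3%, 9.99% and 6.42% of all probes. The 7 that were lower at both times were the probes of Oaz1, Oaz2 and Sat1.

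Oaz1 stood lowest of the 18 probes, with a polysomal minus non-polysomal difference of -2.89 ± 0.085 (7.41-fold lower) at 0 h and -2.45 ± 0.085 (5.45-fold lower) at 6 h, below all but 1.4% and 1.6% of the probes of the array. The 4 Oaz2 probes lay at -2.48 to -2.06 at 0 h and -1.86 to -1.55 at 6 h. Sat1 lay at -2.16 and -2.14 at 0 h and at -1.89 and -2.15 at 6 h. For these 7 probes the direction and the call held at both times under all 25 alternatives of scaling, background, filter and left-out arrays, with adjusted p of limma of at most 0.019.

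The synthases lay on the other side. Srm was higher in the polysomal pool by 1.56 ± 0.070 at 0 h and by 2.55 ± 0.070 (5.86-fold) at 6 h, above 82.5% and 91% of all probes, and was so under all 25 alternatives. Sms was higher by 1.31 and 0.95 at 0 h and by 1.80 and 1.40 at 6 h on its 2 probes, of which the dim one turned to -0.59 at 0 h with normexp on all spots. The call of the dim probe at 0 h was also lost without replicate 3 (0.79, limma adjusted p = 0.057).

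For the other genes the sign rested on the scaling at 1 time or at both. Odc1 was higher in the polysomal pool by 0.21 and 0.32 at 0 h and by 1.15 and 0.99 at 6 h, but scaling to the 75th percentile gave -0.68 and -0.57 at 0 h and -0.16 and -0.32 at 6 h. Its call at 0 h on A_51_P291347 (limma adjusted p = 0.038) was also lost without any of the np0 arrays, p0 replicate 2 or 3, np6 replicate 3 or p6 replicate 1 (0.056 to 0.12). Leaving out all arrays of replicate 1, 2 or 3 lost it too (limma adjusted p = 0.076, 0.19 and 0.28). The call of A_52_P436238 at 0 h was lost without replicate 3 (limma adjusted p = 0.11). Azin1 was higher by 0.57 and 0.76 at 0 h on its brighter probes, with -0.32 and -0.13 under that scaling. At 6 h these probes gave -0.042, which did not pass, and 0.30, which passed at 0.025 but not without np6 replicate 2 or 3 or p6 replicate 3 (limma adjusted p of 0.057 to 0.088). The latter call was also lost without all arrays of replicate 1, 2 or 3 (limma adjusted p = 0.08, 0.078 and 0.17). For the dim Azin1 probe the difference at 0 h is known only as this bound, and the call of limma (adjusted p = 0.039) was lost without replicate 2 or 3, np0 replicate 2, p0 replicate 2 or 3 or any 6 h array (adjusted p of 0.051 to 0.18). At 6 h it gave 0.46, which did not pass.

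Dhps was higher by 0.84 at 0 h (-0.048 with the 75th percentile) and by 1.99 at 6 h, the latter under all 25 alternatives. Smox went from -0.74 ± 0.079 at 0 h to 0.83 ± 0.079 at 6 h, where scaling to the 75th percentile gave -0.48. At 0 h the Smox difference was negative under all 25 alternatives (-1.68 to -0.67) and passed in 24 of them. Amd1 stood at -0.012 at 0 h (95% interval -0.20 to 0.17) and -0.019 at 6 h (-0.21 to 0.17), below the all-probe medians of 0.15 and 0.68.

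**Figure D3:**
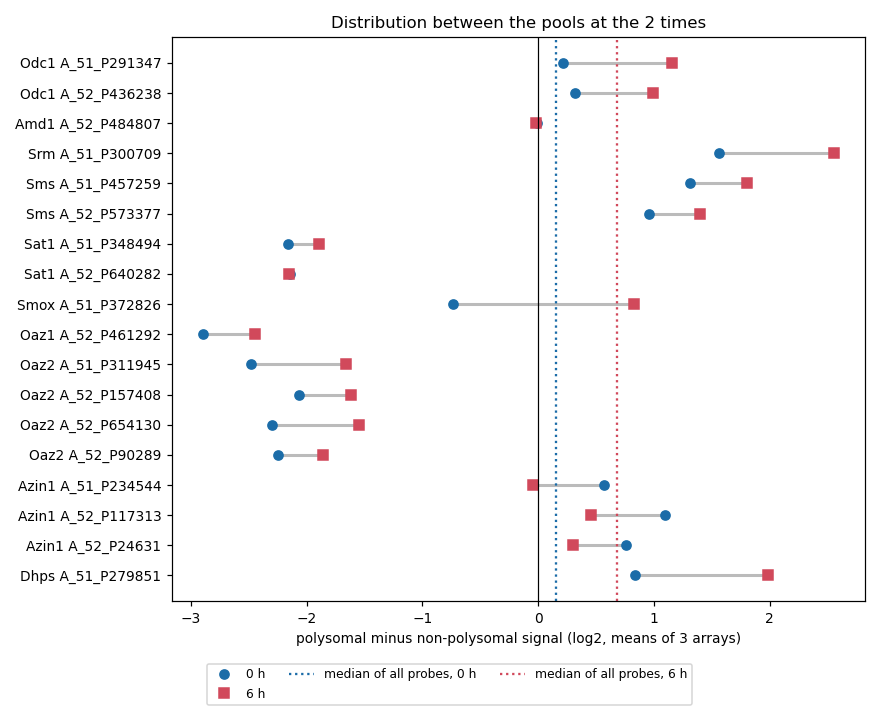
Polysomal minus non-polysomal signal (x axis, log2) of the 18 probes (y axis) at 0 h (blue circles) and 6 h (red squares), means of 3 arrays (2 for Sms A_51_P457259 at 0 h), with the medians of all probes as dotted lines. Oaz1, Oaz2 and Sat1 lie between -2.89 and -1.55, Srm and Sms between 0.95 and 2.55, and the signs of Odc1, Azin1, Amd1, of Dhps at 0 h and of Smox at 6 h change with the scaling.

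The comparison that the study was built on is the shift towards polysomes, the M-value, which is the log2 difference p6 - np6 less p0 - np0 and tests whether the change over time differed between the pools. Of the 18 probes 10 had a positive M-value past the threshold, 2 of them above 1, and 2 had a negative one, against 32% (12.1% above 1) and 4.01% of all probes. The median was 0.45 for the 18 probes and 0.49 for all probes, and 8 of the 18 lay above the latter. Scaling to the 75th percentile brought the median of all probes to 0.064, the 18 probes to 7 positive and 4 negative calls, and all probes from 12.1% above 1 and 1.32% below -1 to 3.75% and 3.48%. Quantile normalization gave 5 and 4 calls among the 18, and a straight line through the spike-ins 15 and 0. Under that line 62.9% of all probes had an M-value above 1, their median was 1.41, and 2 of the 18 lay above it.

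Smox had the largest M-value, 1.57 ± 0.112 (limma adjusted p = 9e-06), with 1.54, 1.57 and 1.60 from the arrays of replicate 1, 2 and 3, above 94% of all probes. It ranged from 1.12 to 2.02 over 25 alternatives and passed in 24 of them. Dhps followed at 1.15 ± 0.162 (limma adjusted p = 0.00045), with 1.23, 0.81 and 1.40 by replicate and a range of 0.55 to 1.49. Srm had 0.99 ± 0.099 (limma adjusted p = 6.2e-05), with 1.04, 0.95 and 0.97 by replicate and a range of 0.51 to 1.09. The call of these 3 genes was lost in a single alternative, normexp on all spots, in which no probe of the 18 passed. In this alternative the log2 spread on 3 arrays was 0.941, 1.121 and 1.837, against at least 2.103 on the others. The cause of the loss was not tested.

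Odc1 had M-values of 0.94 ± 0.106 on A_51_P291347 and 0.67 ± 0.0996 on A_52_P436238 (limma adjusted p = 0.00012 and 0.00061), positive in every replicate and 0.46 and 0.18 above the median of all probes. Both stayed positive under 25 alternatives, down to 0.098 and 0.19 with quantile normalization. Each passed in 23 of them, with a largest limma adjusted p of 0.24 and 0.074. For Oaz1 the shift was smaller, and the Oaz2 probes lay on both sides of the second Odc1 probe. Oaz1 had 0.44 ± 0.12 (limma adjusted p = 0.017), which differed from the median of all probes by -0.041, and read 0.022 with the 75th percentile. Its call was lost without the arrays of any 1 replicate number (limma adjusted p of 0.079 to 0.15). The 4 Oaz2 probes had 0.82, 0.45, 0.75 and 0.39, all past the threshold with spike-in scaling, of which A_52_P90289 turned to -0.031 with the 75th percentile. A_52_P90289 lost its call without any 1 replicate number (limma adjusted p of 0.083 to 0.12), and A_52_P157408 without replicate 1 or 3 (0.13 and 0.15).

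Azin1 went the other way, since its RNA rose more in the non-polysomal pool. The M-value was -0.61 ± 0.132 on A_51_P234544 (limma adjusted p = 0.0051) and -0.45 ± 0.147 on A_52_P24631 (limma adjusted p = 0.037), with -0.84, -0.54 and -0.46 and with -0.46, -0.46 and -0.44 by replicate. Both lay below the median of all probes, and 5.6% and 7.8% of all probes lay lower. The first passed in 21 of 25 alternatives and lost its call without replicate 1 or 3 (limma adjusted p = 0.055 and 0.064). The second passed in 10, being lost without np0 replicate 1 or 3, p0 replicate 2 or 3, np6 replicate 1 or 2 or p6 replicate 1 or 2 (limma adjusted p of 0.051 to 0.083). It was also lost without all arrays of replicate 1, 2 or 3 (limma adjusted p = 0.18, 0.16 and 0.089). A straight line through the spike-ins gave 0.039 on A_52_P24631, and the replicate number as a block took its adjusted p to 0.064 and left 1 of the 2 negative calls. The dim probe gave -0.64 (95% interval -1.89 to 0.61), with np0 arrays that were not well above background.

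Amd1, Sat1 and Sms showed no shift that passed with the spike-in offset. The M-value of Amd1 was -0.007 ± 0.118 (95% interval -0.27 to 0.26) and those of Sat1 were 0.27 (0.002 to 0.54) and -0.015 (-0.28 to 0.25), so for Amd1 and the second Sat1 probe the interval lies below the median of all probes. For Amd1 and the second Sat1 probe the call went both ways with the scaling. The 75th percentile gave -0.43 and -0.44 (limma adjusted p = 0.0031 and 0.0016), quantile normalization -0.60 and -0.20 (0.00072 and 0.031), and a straight line through the spike-ins 0.61 and 0.29 (0.00059 and 0.027). The first Sat1 probe passed with that line (0.69, limma adjusted p = 0.00028) and with a trended variance (0.046). Sms had 0.49 (0.061 to 0.92) and 0.45 (-0.20 to 1.09), both close to that median. The first passed in 7 of 25 alternatives with M-values of 0.49 to 0.80, the only left-out array among them being p0 replicate 2 (0.69, limma adjusted p = 0.015).

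**Figure D4:**
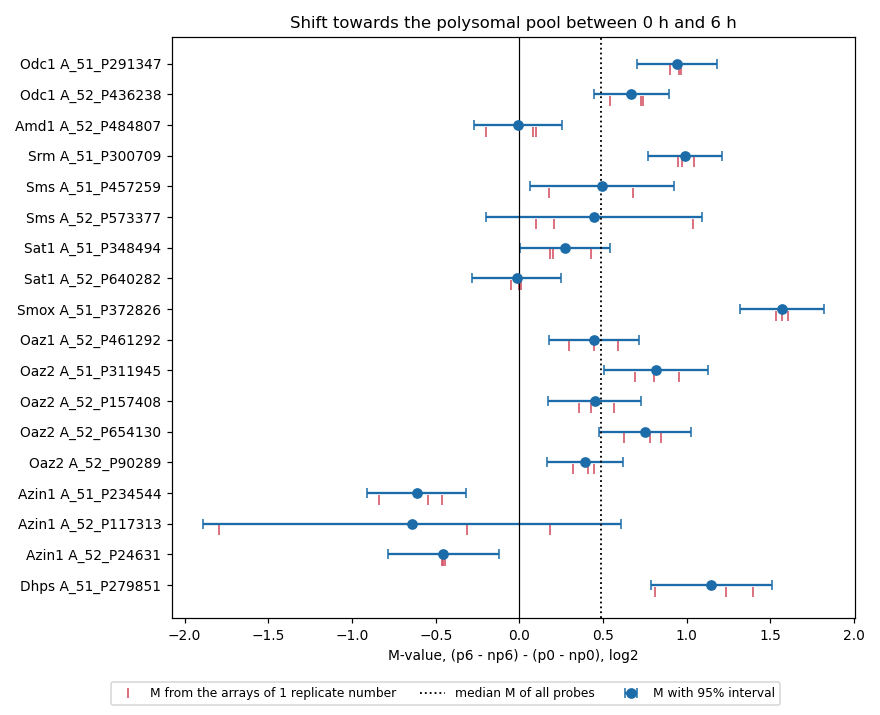
M-value (x axis, log2) of the 18 probes (y axis) with limma's 95% interval (blue) and the values from the arrays of each replicate number (red ticks; none for replicate 3 of Sms A_51_P457259). The dotted line is the median of all probes, 0.49. Smox, Dhps, Srm, Odc1 and the Oaz2 probes A_51_P311945 and A_52_P654130 lie above it. Azin1 lies below 0, with a sign that turns on A_52_P24631 and A_52_P117313 under a straight line through the spike-ins.

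**Figure D5:**
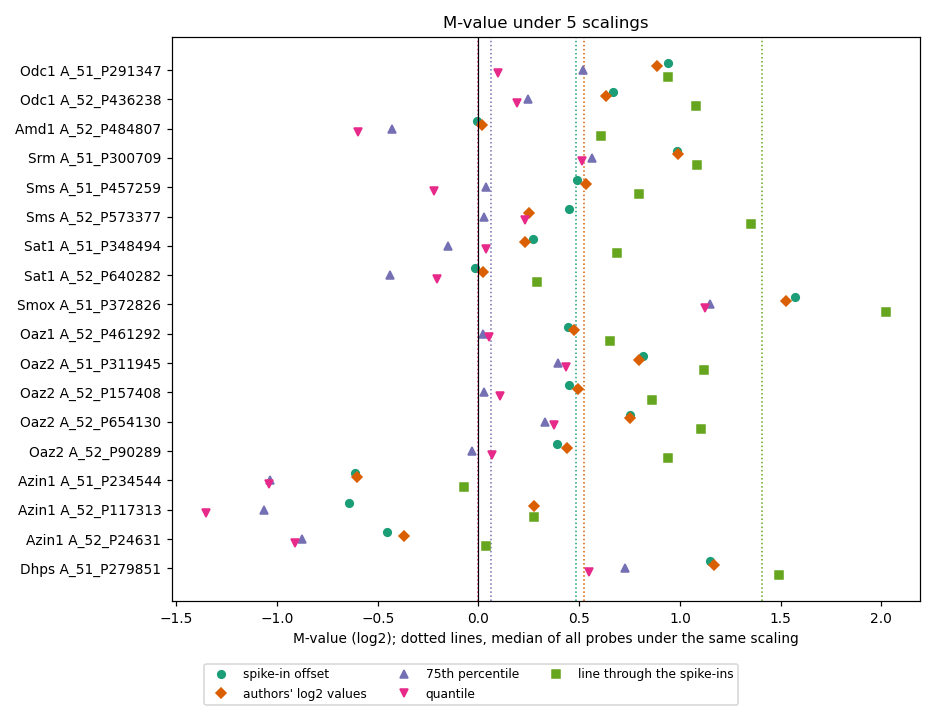
M-value (x axis, log2) of the 18 probes (y axis) under 5 scalings (symbols), with the median of all probes under each as a dotted line of the same color. Smox and Dhps stay to the right of 0 under all 5, between 0.55 and 2.02, and Amd1 runs from -0.60 to 0.61.

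The neighbouring steps of the pathway were read from 30 further genes with 39 probes. In M 26 of these probes were positive past the threshold, 11 of them above 1, and 1 was negative, against 32%, 12.1% and 4.01% of all probes, with a median of 0.81 against 0.49. With the 75th percentile 15 were positive and 2 negative, and leaving out arrays gave 17 to 28 positive ones, the lowest without replicate 3. Quantile normalization gave 12 positive and 5 negative ones, a straight line through the spike-ins 37 and 0, and normexp on all spots 0 and 0. In the polysomal pool 28 of the 39 rose and 2 fell, against 50.7% and 11.7% of all probes, and in the non-polysomal pool 14 rose and 12 fell, against 20.6% and 19.6%. Probes of Oaz3, Satl1, Arg1, Arg2, Gatm and Slc7a2 were well above background on no more than 2 arrays and are given by count.

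The genes that supply and recycle S-adenosylmethionine had positive M-values past the threshold on 11 of 11 probes, 7 of them above 1, against 32% and 12.1% of all probes. The count was 6 with the 75th percentile, 8 with the replicate block and 7 to 10 with arrays left out, the 7 arising without replicate 1, 2 or 3 or without np6 replicate 2. Quantile normalization gave 5 positive and 2 negative calls. Ahcy, which clears S-adenosylhomocysteine, had 1.91, and its RNA fell by 1.44 on the log2 scale in the non-polysomal pool while the polysomal RNA rose by 0.47. The salvage enzymes of methylthioadenosine, the by-product of both synthases, read 1.03 (Mtap), 1.34 and 1.33 (Mri1), 1.07 (Apip), 1.00 and 0.82 (Enoph1) and 1.03 (Adi1). Mat2a, which makes S-adenosylmethionine, rose by 1.46 in the polysomal and 1.1 in the non-polysomal pool, with an M-value of 0.36.

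The hypusine genes had positive M-values past the threshold on 5 of 5 probes, against 32% of all probes, and on 3 with the 75th percentile or without replicate 3. Dohh, which completes hypusine after Dhps, had 1.19 and rose by 1.42 in the polysomal pool. Its substrate eIF5A rose as RNA in both pools, by 2.01 and 1.58 polysomal and 1.27 and 1.07 non-polysomal on the 2 probes of Eif5a. Eif5a2 rose by 1.202 and 0.84 in the polysomal pool.

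Amd2, the copy of Amd1 and so a gene of synthesis, was counted on the list of catabolic and antizyme genes. On this list 3 of 7 probes had a positive M-value past the threshold, against 32% of all probes. The 1 negative M-value past the threshold was that of Amd2 (-0.45), against 4.01% of all probes. Azin2, a relative of Azin1, rose by 2.05 and 2.04 in the polysomal and non-polysomal pool with an M-value of 0.008. Paox, which oxidises acetylated polyamines, fell on both probes, by 1.16 and 1.102 on the log2 scale in the non-polysomal and by 0.22 and 0.35 in the polysomal pool.

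Among the transporters 5 of 8 probes had a positive M-value past the threshold, against 32% of all probes, and 3 without replicate 3. The values were 1.496 for Gpc1, a proteoglycan linked to polyamine uptake, 1.31 and 0.57 for Slc3a2, and 1.36 for the brighter probe of Atp13a2, whose other probe was not well above background on any np6 array. The non-polysomal RNA of Atp13a2 fell by 1.27 on the log2 scale on the brighter probe, and Atp13a3 rose by 1.05 in the polysomal pool. Of the genes of arginine and ornithine supply 2 of 8 probes passed in M, against 32% of all probes, 1 to 3 with arrays left out and 0 with the 75th percentile. Agmat rose by 1.24 and the arginine transporter Slc7a1 by 0.93 and 1.14 in the polysomal pool.

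For Odc1, Amd1, Oaz1 and Azin1 the 3 genes whose scaled signal followed the same course over the 12 arrays most closely were picked from 16567 probes by Pearson's r, which is a description of 12 arrays in 4 groups. For Odc1 they were Ube2q2, Cox5a and Socs3 (r of 0.9984 to 0.9985). For Amd1 they were Alkbh1, Clmp and Stk35 (0.9979 to 0.9984), and for Oaz1 Ppdpf, Insyn1 and Ifi27l2a (0.9989 to 0.9996). For Azin1 they were Slc30a9, Moap1 and Csf1r (0.995 to 0.998). All 3 had a larger rise in the non-polysomal than in the polysomal pool, as in Azin1. The choice by r over the same arrays favours such a likeness, so it is no separate observation.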

How the data were processed

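RNA from 12 pools of gradient fractions was hybridised to 1-color Agilent mouse arrays on 3 slides, each slide with 1 array of every group. The deposited scanner files (Agilent Feature Extraction 10.7.1.1) hold Cy3 intensities for 45018 spots, 1639 of them controls, background-subtracted but not normalized between arrays. The authors also deposited log2 values, which equal the log2 median pixel intensity plus a constant on each array. Groups were taken from the sample descriptions.

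Here log2 of the background-subtracted intensity was used, outlier spots were left out, the spots of a probe were averaged and each array was shifted by the mean of 10 spike-in transcripts (32 spots each). A gene symbol was found through RefSeq accessions for 26690 probes (64.8%). One fit of the 4 groups in limma 3.58.1 (R 4.3.3) gave every contrast, with Benjamini-Hochberg adjustment over all probes. A change was more than 2-fold where its size was also above 1 on the log2 scale. For several probes of a gene every probe is given. The number of arrays limits the precision. The fit was tested on simulated data for 41174 probes, 200 of them changed by more than 2-fold in p6. In M it recovered 67% of these and called 8 unchanged probes.

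The named genes are the 10 genes, the neighbouring pathway genes called in M or in a change over time, and the 3 genes most like each of 4 members. The members and lists were chosen with earlier results of these data known. Same-numbered arrays of different groups deviated together only weakly in most pairs (r of -0.097 to 0.42 in 18 pairs, 4 above 0.1). The 4 were p0 with p6 in replicate 3 (0.42), and in replicate 1 p0 with np6 (0.23), p0 with p6 (0.20) and np6 with p6 (0.11). The alternatives were other scalings, the authors' values, normexp background correction (offset 50, on median pixels in place of means, which the files do not hold), a filter on dim probes, outliers kept, the replicate block, a trended variance, gene means and leaving out arrays. After the data were seen, normexp without spots of non-uniform background and the counts of pathway genes were added.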

Additional observations from a re-analysis of the deposited data

Results flagged for a closer look

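For 2 of the 18 probes the change over time differed between the pools by more than 2-fold in the test of that difference. That is 11.1% of the 18, near the 12.1% of all probes with an M-value called above 1. Smox had an M-value of 1.57, with a rise of 2.14 in the polysomal and 0.57 in the non-polysomal pool, and Dhps had 1.15 (1.147), with a rise of 1.01 and a change of -0.14. Both lay above the median of all probes, by 1.08 and 0.66.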

How the results depend on the processing

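Over the single probes, 366 of 450 M-values kept their direction and their side of the threshold under the alternatives, as did 425 of 450 polysomal and 420 of 450 non-polysomal changes over time, and 393 and 413 of 450 polysomal minus non-polysomal differences at 0 h and 6 h. The probes more than 2-fold lower in the polysomal pool numbered 7 at both times, 8 at 0 h and 10 at 6 h with the 75th percentile or quantile normalization, and 7 under the other alternatives. Signal over background limits Azin1 A_52_P117313, which was well above background on 7 of 12 arrays. For the counts of probes past 2-fold and for the signs given next, the cause of a change was not tested.

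With the 75th percentile the counts were 1 up (2 with the spike-in offset) and 1 down (0) in M, 1 down (0) in each pool over time, 0 up (3) at 0 h and 1 up (5) at 6 h between the pools. Quantile normalization gave 1 up and 1 down in M, 8 up (13) in the polysomal pool, 0 up at 0 h and 1 up at 6 h. In the polysomal pool the share of all probes up was then 7.78% (19.2%). A straight line through the spike-ins gave 7 up in M, 1 down in the non-polysomal pool and 8 up at 6 h between the pools. Normexp on all spots, whose log2 spread on 3 arrays was 0.941, 1.121 and 1.837 against at least 2.103 on the others, gave 0 up in M, 4 up (8) in the non-polysomal pool, 1 up at 0 h and 3 up at 6 h between the pools. Leaving out arrays gave 2 to 3 up in M, 11 to 13 up in the polysomal and 7 to 9 up in the non-polysomal pool, and 2 to 4 up at 0 h and 5 to 6 up at 6 h between the pools. The probes that fell more than 2-fold in the non-polysomal pool went from 0 to 1 (the dim Sms probe) without replicate 1 or 3 or the np0 or np6 array of either.

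Signs turned as follows. With the 75th percentile M was -0.151 for Sat1 A_51_P348494 and -0.031 for Oaz2 A_52_P90289, the polysomal change was -0.358 for Sms A_51_P457259 and -0.009 for Oaz2 A_52_P157408, and the non-polysomal change of the latter was -0.037. Between the pools at 0 h it gave -0.316 and -0.131 for Azin1 A_51_P234544 and A_52_P24631, -0.048 for Dhps, and -0.678 and -0.566 for Odc1 A_51_P291347 and A_52_P436238. At 6 h it gave -0.159 and -0.319 for the Odc1 probes, -0.48 for Smox, and -0.854 and -1.007 for Azin1 A_52_P117313 and A_52_P24631. Quantile normalization gave M of -0.223 and a polysomal change of -0.70 for Sms A_51_P457259, a polysomal change of -0.136 for Oaz2 A_52_P157408, and non-polysomal changes of -0.134, -0.241 and -0.231 for Oaz2 A_51_P311945, A_52_P157408 and A_52_P654130. Between the pools it gave -0.313, -0.134 and -0.592 at 0 h for Azin1 A_51_P234544, Azin1 A_52_P24631 and Odc1 A_52_P436238, and -0.559, -0.343, -1.045 and -0.399 at 6 h for Smox, Azin1 A_52_P117313, Azin1 A_52_P24631 and Odc1 A_52_P436238.

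The straight line gave M of 0.275 and 0.039 for Azin1 A_52_P117313 and A_52_P24631, 0.607 for Amd1 and 0.29 for Sat1 A_52_P640282, a polysomal change of 0.202 for Sms A_52_P573377, a non-polysomal change of -0.019 for Oaz2 A_52_P157408, and 0.416 and 0.481 at 6 h for Azin1 A_51_P234544 and Amd1. The authors' log2 values gave M of 0.275, 0.017 and 0.021 for Azin1 A_52_P117313, Amd1 and Sat1 A_52_P640282, and 0 and 0.017 for Amd1 between the pools. Normexp on all spots gave M of 0.366, 3.106 and 0.565 for Azin1 A_51_P234544, A_52_P117313 and A_52_P24631 and 1.331 for Amd1, a polysomal change of 1.447 for Sms A_52_P573377, a non-polysomal change of -0.695 for Azin1 A_52_P117313, -0.088, -1.133 and -0.594 at 0 h for Azin1 A_51_P234544, Azin1 A_52_P117313 and Sms A_52_P573377, and 0.278 and 0.519 at 6 h for Azin1 A_51_P234544 and Amd1. Without spots of non-uniform background, added after seeing the data, it gave M of 0.324 and 0.013 for Azin1 A_52_P117313 and Amd1, and 0.006 and 0.019 for Amd1 between the pools.

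Leaving out arrays turned signs of values near 0 only: M of Amd1 (-0.083 to 0.09) and of Sat1 A_52_P640282 (-0.08 to 0.041), the polysomal change of Sms A_51_P457259 (-0.057 to 0.346), the non-polysomal change of Oaz2 A_52_P157408 (-0.014 to 0.086), and the difference between the pools of Amd1 (-0.06 to 0.063 at 0 h, -0.073 to 0.031 at 6 h) and of Azin1 A_51_P234544 (-0.122 to 0.058 at 6 h). With the replicate number as a block the negative calls in M went from 2 to 1 and the single negative call in the polysomal pool was lost. In the other counts past 2-fold the block changed nothing.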
